A study of Mus musculus with 5 samples.

Results

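Scar-type fibroblasts of the inflamed spinal cord were taken here as cells that carry RNA of the matrix genes Tnc, Col7a1 and Cthrc1 and of the chemokine gene Cxcl9. A cell was a member if it held at least 3 UMIs (unique molecular identifiers, 1 per captured RNA molecule) over these 4 genes, from at least 2 of them. It also had to hold fewer UMIs over Lcn2, Saa3, Cxcl5 and Draxin, the genes of another inflammatory fibroblast group, and at least 2 UMIs over Col1a1, Col1a2, Col3a1 and Dcn. This rule found 425 members among 4678 cells, or 9.09%, and 422 of the 425 came from mice with experimental autoimmune encephalomyelitis (EAE), an immune attack on myelin. The 4 genes were proposed from earlier results of these same cells, in which they went together, so their own levels are given as descriptions without a test. Postn was proposed as a marker with them but is not in the rule, and it was tested. The tests on other genes ask how regularly those genes went with the rule in the EAE libraries, and they are no independent evidence that such a group exists.

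All cells carried a Col1a1GFP reporter on a C57/BL6 background, in which the promoter of a type I collagen gene drives a green fluorescent protein. They were sorted from dissociated spinal cord for that fluorescence and sequenced with the droplet chemistry 10x Genomics v2. The groups were mice with EAE (libraries EAE 1 and EAE 2) and healthy mice (Healthy 1, Healthy 2 and Healthy 3). The sources used here give no age, no time after disease onset and no number of animals per library. Whether each library is a different animal is not stated, so no p-value can be taken to measure the spread between animals. The tests within EAE took out each library's own level. Their p-values measure how far the differences between cell groups varied from EAE 1 to EAE 2. Those against Healthy fibroblasts measure the spread between Healthy 1 and Healthy 2 and how far the batch difference varied between cell groups. The sums of each EAE library entered that fit without a term for library. Healthy 1, Healthy 2 and EAE 1 have labels without a sequencing lane and are called the first batch, and EAE 2 and Healthy 3, whose labels name a lane, the second.

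Fibroblasts lay down and remodel the collagen-rich matrix of connective tissue, and in the injured cord they build a fibrotic scar around lesions. Tenascin C (Tnc) and periostin (Postn) are matricellular proteins typical of wounds, collagen VII (Col7a1) forms anchoring fibrils, and Cthrc1 is a secreted protein made by fibroblasts during repair. CXCL9 is induced by interferon gamma and draws T cells through the receptor CXCR3. In the mouse genome (GRCm38) Tnc lies at chr4:63959785-64047015, Cxcl9 at chr5:92321347-92328079, Col7a1 at chr9:108953586-108984875, Cthrc1 at chr15:39076932-39087121 and Postn at chr3:54361109-54391037.

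The 5 tables held 7205 barcodes, of which 6904 passed the filters, with 200 or more genes and mitochondrial UMIs of 10% or less. Library totals ranged from 1588693 to 10775024 UMIs. Many barcodes appeared in more than 1 table of the first batch, and each was kept once, in the library where its UMI total was highest, which left 4678 cells. Of the 208 scar-type barcodes of EAE 1, 191 were also listed for Healthy 1 and 148 for Healthy 2, while of the 214 of EAE 2, 2 were listed for Healthy 1 and 1 for Healthy 2. How the repeats arose was not tested.

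Scar-type cells made up 10.9% of the cells of EAE 1 (208 of 1913, exact binomial 95% interval 9.51% to 12.4%) and 17.3% of those of EAE 2 (214 of 1238, 15.2% to 19.5%). The Healthy libraries held 2 of 724 cells (0.276%), 1 of 429 (0.233%) and 0 of 374, the last of which allows a share of up to 0.802%. The EAE and Healthy intervals did not overlap, which is a description because the group was named for EAE. The intervals and the limit cover counting error only. Scar-type cells were deep, with medians of 6708.5 and 9205.5 UMIs in EAE 1 and EAE 2, against 3639 and 4055 in other EAE fibroblasts, and a rule on UMIs finds more members in deep cells. After each cell was thinned to 2000 UMIs the shares were 6.21% in EAE 1 and 5.61% in EAE 2, against 0.541%, 0.313% and 0 in Healthy 1 to 3. Cells with fewer UMIs were left out, which kept 1835 cells of EAE 1, 1087 of EAE 2, and 185, 319 and 313 cells of Healthy 1 to 3. At equal depth the EAE shares had overlapping intervals (5.15% to 7.42% in EAE 1 and 4.32% to 7.15% in EAE 2), and the Healthy shares stayed below both. With every repeated barcode counted as deposited, the Healthy shares were 1.46% in Healthy 1, 2.25% in Healthy 2 and 0 in Healthy 3.

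**Figure D1:**
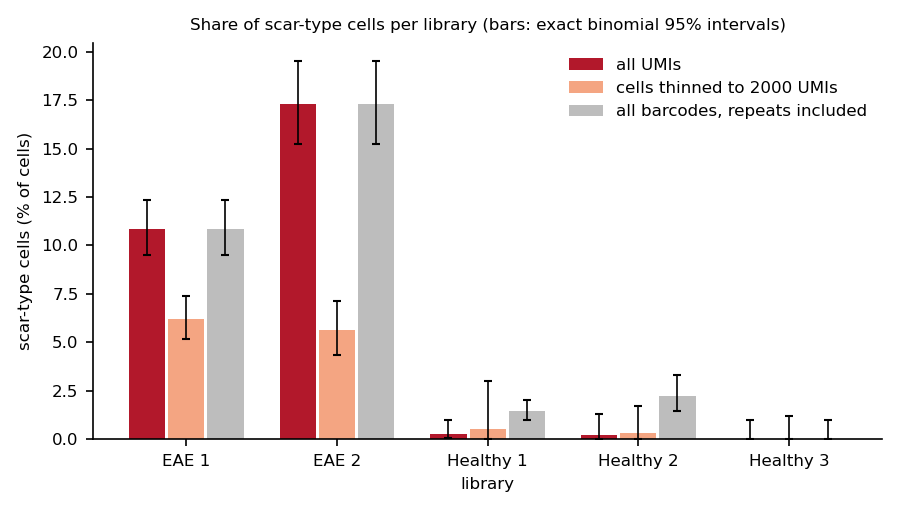
Share of scar-type cells (percent of cells) in each library with all UMIs, after thinning to 2000 UMIs per cell and with all repeated barcodes counted; lines are exact binomial 95% intervals. EAE 1 and EAE 2 stand at 10.9% and 17.3% with all UMIs and at 6.21% and 5.61% after thinning, and Healthy 1 to 3 reach at most 2.25%, with all repeated barcodes counted.

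The 3 Healthy members differed from each other in other genes. In Healthy 1 a member with 4 Cthrc1 UMIs and 1 Tnc UMI held 72 UMIs of osteoblast markers, 28 of them from Bglap, the bone protein osteocalcin. The other member of Healthy 1 held 22 Cxcl9 UMIs together with 13 of Cxcl10 and 5 of Gbp2. In Healthy 2 the member held 117 UMIs of tenocyte markers, 10 of them from Tnmd, the tendon protein tenomodulin. None of these 3 cells held a Postn UMI.

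Across the EAE members Cthrc1 was the most often detected of the 4 genes, with a UMI in 87.5% of the members of EAE 1 and 90.2% of those of EAE 2. Tnc was detected in 53.8% and 52.3%. Cxcl9 and Col7a1 differed between the libraries: Cxcl9 had a UMI in 81.3% of EAE 1 members and 38.8% of EAE 2 members, and Col7a1 in 52.4% and 83.2%. Of all UMIs of the 4 genes in members, Cxcl9 gave 61.4% in EAE 1 and 31.8% in EAE 2. A few cells held most Cxcl9 molecules: 44 members of EAE 1 with at least 20 Cxcl9 UMIs carried 72.0% of its Cxcl9 UMIs, and 10 members of EAE 2 carried 56.9%. The most frequent combination was Col7a1 with Cthrc1 alone (15 members of EAE 1 and 70 of EAE 2), and all 4 genes were found together in 40 and 33 members.

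Levels are given in CPM, a gene's UMIs in the summed cells of a group and library, scaled to a total of 1000000 UMIs. Tnc had 471 and 259.5 CPM in scar-type cells of EAE 1 and EAE 2, against 66.1 and 80.3 CPM in Lcn2/Saa3 fibroblasts, 17.6 and 12.1 CPM in other EAE fibroblasts and 15.7, 4.05 and 9.72 CPM in the fibroblasts of Healthy 1 to 3. Cxcl9 had 1661 and 395 CPM in scar-type cells, 131 and 161 CPM in Lcn2/Saa3 fibroblasts, 90.7 and 27.8 CPM in other EAE fibroblasts and 17.8, 24.3 and 0.694 CPM in Healthy fibroblasts. Of the genes that every member had to show in part, Dcn, which encodes the proteoglycan decorin, had 5809 and 4152 CPM in scar-type cells, against 11670.0 and 10727 CPM in other EAE fibroblasts and 23524, 32803 and 25303 CPM in Healthy fibroblasts. Col1a1 ran the other way, with 9758 and 9884 CPM in scar-type cells, 5568 and 5926 CPM in other EAE fibroblasts and 1612, 4268 and 2948 CPM in Healthy fibroblasts. Within both EAE libraries the scar-type cells were thus lower in Dcn and higher in Col1a1 than other fibroblasts.

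Members with more Cxcl9 UMIs than UMIs over Tnc, Col7a1 and Cthrc1 are called Cxcl9-led here, and those with fewer matrix-led. EAE 1 held 96 Cxcl9-led and 107 matrix-led members, and EAE 2 held 35 and 175. The remaining 5 and 4 members had equal counts.

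**Figure D2:**
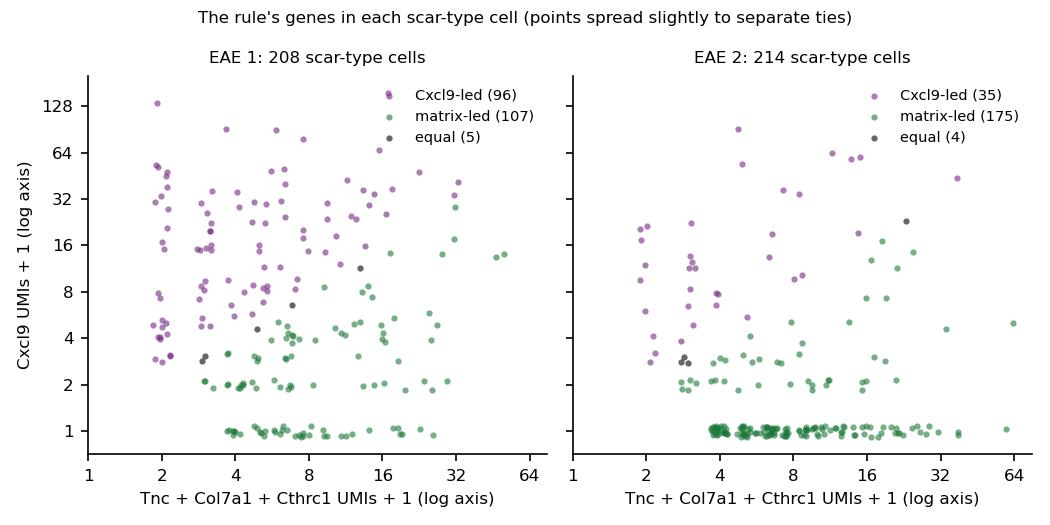
Each point is 1 scar-type cell, with its UMIs over Tnc, Col7a1 and Cthrc1 plus 1 on the horizontal and its Cxcl9 UMIs plus 1 on the vertical axis (both log axes), for EAE 1 on the left and EAE 2 on the right. EAE 1 holds 96 Cxcl9-led cells against 35 in EAE 2, and 131 cells of EAE 2 lie on the bottom line without a Cxcl9 UMI, against 39 in EAE 1.

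The rule asked every member for UMIs of Col1a1, Col1a2, Col3a1 or Dcn, so the cell type was checked on the 4 fibroblast markers outside it. Pdgfra, a receptor for platelet-derived growth factor, had 161 and 197 CPM in scar-type cells against 276 and 315 CPM in other EAE fibroblasts, and lumican (Lum) 427 and 465 CPM in scar-type cells against 758 and 549.8 CPM in other EAE fibroblasts. In the test against other EAE fibroblasts, described below, 2 of the 4 (Col6a1 and Col6a2) rose, Pdgfra fell and Lum did not pass, and their median on the log2 scale was -0.06. Postn, which the rule did not use, was proposed as a marker together with the rule's 4 genes, so its rise is no independent result. It had 141 and 178 CPM in scar-type cells, against 37.7 and 35.3 CPM in other EAE fibroblasts. With each cell kept in its group and thinned to 2000 UMIs, a Postn UMI was found in 20.5% and 25.8% of scar-type cells (205 and 213 cells), against 4.95% and 4.79% of other EAE fibroblasts (747 and 584 cells). Among cells with immune markers, which were picked anew after thinning, it was found in 0 of 101 and 0 of 16. Without thinning the shares were 40.4% and 57.5% in scar-type cells and 8.37% and 9.48% in other EAE fibroblasts. In cells with immune markers they were then 0.775% of 129 cells and 3.57% of 28. Acta2 in the thinned cells was found in 38.5% and 34.7% of scar-type cells and in 6.83% and 4.79% of other EAE fibroblasts. Markers of other cell types were present as well. The 10 myeloid markers summed to 55.3 and 13.9 CPM in scar-type cells, against 22.7 and 32.1 CPM in other EAE fibroblasts, with the macrophage gene Adgre1 at 0 in scar-type cells. None of the 3 myeloid markers tested against other EAE fibroblasts passed. The 9 measured T and natural killer cell markers summed to 17.6 and 12.5 CPM in scar-type cells against 9.26 and 6.21 CPM in other EAE fibroblasts, with Cd3e and Nkg7 at 0. Only 1 of them was tested, and it rose against other EAE fibroblasts (log2 fold change 3.39) and against Lcn2/Saa3 fibroblasts (3.12). The 8 endothelial markers summed to 262 and 256 CPM in scar-type cells against 233 and 224 CPM in other EAE fibroblasts, with Cldn5 and Kdr at 0, and 144 members held at least 3 UMIs of them. Of the 5 endothelial markers tested against other EAE fibroblasts 2 rose and 1 fell. The 10 mural (pericyte and smooth muscle) markers summed to 894 and 876 CPM in scar-type cells and 873 and 995 CPM in other EAE fibroblasts. Of the mural genes, Rgs5, a pericyte marker, had 151 and 167 CPM in scar-type cells and 8.30 and 5.23 CPM in other EAE fibroblasts, which did not pass the test below (adjusted p = 0.14, edgeR). At least 5 Rgs5 UMIs were found in 8 members of EAE 1 and 4 of EAE 2, and 33 and 39 members held at least 3 UMIs over 17 markers of other classes. The comparisons across genes were also computed without those 33 and 39 cells; the shares were not. Other EAE fibroblasts had been cleared of such cells by that cutoff, so the mural and immune markers are not compared on equal terms.

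At the border of the rule, the 14 members of EAE 1 and 34 of EAE 2 with exactly 3 UMIs of the 4 genes had 233 and 149 CPM of Postn. Cells just outside, with 2 UMIs from 2 of the genes, had 0 and 68.7 CPM (15 and 33 cells). Cells with at least 3 UMIs of a single gene of the 4 had 146 and 125 CPM (54 and 33 cells). Acta2 was low at the border: the members with exactly 3 UMIs had 93.2 and 80.4 CPM, and those with 6 or more 477 and 535 CPM. Cells just outside had 258 and 80.2 CPM of Acta2 with 2 UMIs from 2 of the genes, and 125 and 421 CPM with a single gene. Other EAE fibroblasts had 72.8 and 47.7 CPM, so the Acta2 level of the whole group was not seen in members with exactly 3 UMIs. These members were also shallower, with median totals of 4742.5 and 7197 UMIs against 7375.5 and 11148 in those with 6 or more. The part of depth in the Acta2 levels was not tested.

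Set against other EAE fibroblasts, scar-type cells were higher in most tested genes of collagen crosslinking, contraction and the cell cycle and lower in most of those of resting fibroblasts. Postn, Tagln and Timp1 were higher (log2 fold changes of 2.19, 2.27 and 2.06), and Gpc3 was lower (-3.96). UMIs were summed per library and cell group, and a gene passed at an adjusted p below 0.05 in edgeR's quasi-likelihood test with the library as a block, with the 12 genes of the rule left out. Of 11140 genes tested 1544 (13.9%) were higher and 1481 (13.3%) lower, and the median over all genes was -0.02 on the log2 scale. These shares are the background for every list in this comparison. The lists were chosen with earlier results of these data known. Without the library block 208 genes were higher and 315 lower, against other fibroblasts matched on UMI totals 481 and 621, after thinning to 2000 UMIs 377 and 429, and in DESeq2 596 and 524. Fits with an EAE library left out also held the 3 Healthy sums, since the EAE sums alone would leave no residual degree of freedom; the single one that remained came from Healthy 1 and Healthy 2, and the EAE sums were assumed to vary like them. Without EAE 1 344 of the 2915 calls still tested passed again and 2913 kept their direction, and without EAE 2 332 of 2977 passed again and all kept it.

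Of 23 tested matricellular genes and glycoproteins outside the rule, 12 rose and 6 fell (median log2 fold change 0.33). Postn rose, at 141 and 178 CPM in scar-type cells of EAE 1 and EAE 2 against 37.7 and 35.3 CPM in other EAE fibroblasts (log2 fold change 2.19 ± 0.15 (SE), adjusted p = 4.9e-10), and it passed with either library left out. Timp1, an inhibitor of metalloproteinases, had 2986 and 1172 CPM in scar-type cells against 715 and 307 CPM in other EAE fibroblasts (log2 fold change 2.06 ± 0.11 (SE), adjusted p = 8.3e-12). Every scar-type value of both genes lay above every value of other EAE fibroblasts. Matrix proteases and their inhibitors, to which Timp1 belongs, rose in 10 of 29 cases and fell in 6. Col6a3, a chain of the microfibrillar collagen VI, had 440.0 and 437 CPM in scar-type cells and 157 and 157 CPM in other EAE fibroblasts (log2 fold change 1.55 ± 0.11 (SE), adjusted p = 1.2e-09). Of 14 network and basement membrane genes 7 rose and 4 (Col4a5, Col8a2, Lama2 and Hspg2) fell. Fibronectin (Fn1) had 675 and 666 CPM in scar-type cells and 526 and 293 CPM in other EAE fibroblasts (log2 fold change 0.84 ± 0.17 (SE), adjusted p = 0.006), with an adjusted p of 0.12 without EAE 1, 0.88 without EAE 2 and 0.11 against matched fibroblasts. Spp1, or osteopontin, had 601 and 363 CPM in scar-type cells against 679 and 336 CPM in other EAE fibroblasts and did not pass (adjusted p = 1). The basement membrane chain Col4a1 had 1542 and 2045 CPM in scar-type cells against 577 and 989.6 CPM in other EAE fibroblasts (log2 fold change 1.29 ± 0.11 (SE), adjusted p = 1.8e-08; 0.11 without EAE 1). Has2, a hyaluronan synthase, stood at 31.2 and 32.5 CPM in scar-type cells and 5.11 and 9.16 CPM in other EAE fibroblasts (log2 fold change 2.21 ± 0.27 (SE), adjusted p = 1.9e-06), and it did not pass after thinning to 2000 UMIs (adjusted p = 0.16).

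Of 12 tested fibrillar and fibril-associated collagen genes, 8 rose and none fell (median log2 fold change 0.59), and Col5a3, a minor chain of collagen V, had the largest log2 fold change (2.09 ± 0.27 (SE), adjusted p = 4.8e-04; 0.11 against matched fibroblasts). Of 22 genes of collagen crosslinking and processing, 18 rose and 2 (Pcolce and Adamts2) fell, with a median of 0.84. Pcolce had an adjusted p of 0.73 without EAE 1 and 0.8 without EAE 2, and Adamts2 of 0.81 and 0.93. Loxl2, a lysyl oxidase that crosslinks collagen, had 449.8 and 456 CPM in scar-type cells against 197 and 184 CPM in other EAE fibroblasts (log2 fold change 1.32 ± 0.11 (SE), adjusted p = 9.7e-09). Plod2, a lysyl hydroxylase, had 181 and 209.8 CPM in scar-type cells against 73.1 and 99.4 CPM in other EAE fibroblasts (log2 fold change 1.25 ± 0.12 (SE), adjusted p = 8.2e-08). Without EAE 1 the adjusted p was 0.068 for Loxl2 and 0.14 for Plod2, and without EAE 2 it was 0.1 for Loxl2. Proteoglycans split: of 18 tested, 6 rose and 9 fell, among them Gpc3 and the small leucine-rich proteoglycan Ogn. Ogn had 29.9 and 12.1 CPM in scar-type cells against 238 and 183 CPM in other EAE fibroblasts (log2 fold change -3.33 ± 0.19 (SE), adjusted p = 2.9e-09).

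Contractile genes were higher. Of 14 tested, 12 rose and none fell (median log2 fold change 1.15). Tagln, which encodes the actin-binding transgelin of smooth muscle and myofibroblasts, had 478 and 443 CPM in scar-type cells against 119 and 81.1 CPM in other EAE fibroblasts (log2 fold change 2.27 ± 0.19 (SE), adjusted p = 5.1e-05). Acta2, the smooth muscle actin that marks myofibroblasts, had 422 and 428 CPM in scar-type cells against 72.8 and 47.7 CPM in other EAE fibroblasts (log2 fold change 2.87 ± 0.38 (SE), adjusted p = 0.021). Without cells that held markers of other classes Acta2 kept its size, at 2.75, with an adjusted p of 0.051, and against other fibroblasts of matched depth it was 0.089. Tagln passed in both settings. Mural markers moved with this group: of 8 tested, Kcnj8, Abcc9, Higd1b, Notch3 and Mcam rose and Cspg4 and Vtn fell. Kcnj8, a potassium channel of pericytes, had 17.6 and 12.5 CPM in scar-type cells against 4.15 and 3.60 CPM in other EAE fibroblasts, and the part of mural markers in the contractile genes beyond the settings above was not tested.

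The largest rises by the naming rule took in genes of several kinds. Serpinb2, a plasminogen activator inhibitor, led the list (log2 fold change 3.39 ± 0.40 (SE), adjusted p = 1.4e-06), but its level was 45.6 and 0.464 CPM in scar-type cells of EAE 1 and EAE 2 against 4.47 and 0 CPM in other EAE fibroblasts, so the rise rests on EAE 1. Tubb3, a beta tubulin best known from neurons, had 70.3 and 38.5 CPM in scar-type cells against 6.39 and 4.58 CPM in other EAE fibroblasts (log2 fold change 3.34 ± 0.24 (SE), adjusted p = 2.0e-09). Kif26b, a kinesin family member, had 35.1 and 51.1 CPM in scar-type cells and 4.15 and 5.56 CPM in other EAE fibroblasts (log2 fold change 3.20 ± 0.26 (SE), adjusted p = 6.4e-09; 0.13 after thinning). Ubd, a ubiquitin-like protein induced by interferon gamma, differed between the libraries, with 112 and 13.9 CPM in scar-type cells against 11.2 and 3.27 CPM in other EAE fibroblasts (log2 fold change 3.09 ± 0.27 (SE), adjusted p = 7.4e-08; 0.32 without EAE 1). Ddah1, which degrades methylated arginine, and Bcat1, an aminotransferase of branched-chain amino acids, rose by 2.73 and 2.53 on the log2 scale; Ddah1 did not pass without EAE 2 (adjusted p = 0.28). Mmp12, a metalloproteinase best known from macrophages, had 35.8 and 14.4 CPM in scar-type cells against 5.75 and 2.94 CPM in other EAE fibroblasts (log2 fold change 2.53 ± 0.39 (SE), adjusted p = 1.2e-04). It did not pass without cells that held markers of other classes (adjusted p = 0.23) or without EAE 1 (0.14).

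Cell cycle genes were higher as a list: 15 of 18 tested rose and none fell, with a median log2 fold change of 1.95. Birc5, or survivin, had 85.3 and 49.2 CPM in scar-type cells against 18.2 and 7.52 CPM in other EAE fibroblasts (log2 fold change 2.46 ± 0.20 (SE), adjusted p = 7.4e-09). Mki67, the gene of the proliferation antigen Ki-67, had 29.9 and 20.4 CPM in scar-type cells against 5.43 and 3.27 CPM in other EAE fibroblasts (log2 fold change 2.61 ± 0.31 (SE), adjusted p = 1.8e-06), and Prc1, a spindle protein, rose by 2.59 on the log2 scale. After thinning to 2000 UMIs the adjusted p of Mki67 was 0.16 and that of Top2a, the mitotic topoisomerase, 0.065, while the log2 fold changes were 1.84 and 1.62. Genes of hypoxia and glycolysis also rose in 12 of 22 cases, among them the lactate transporter gene Slc16a3 (69.7 and 39.0 CPM in scar-type cells against 22.0 and 10.1 CPM in other EAE fibroblasts), and 3 fell.

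**Figure D3:**
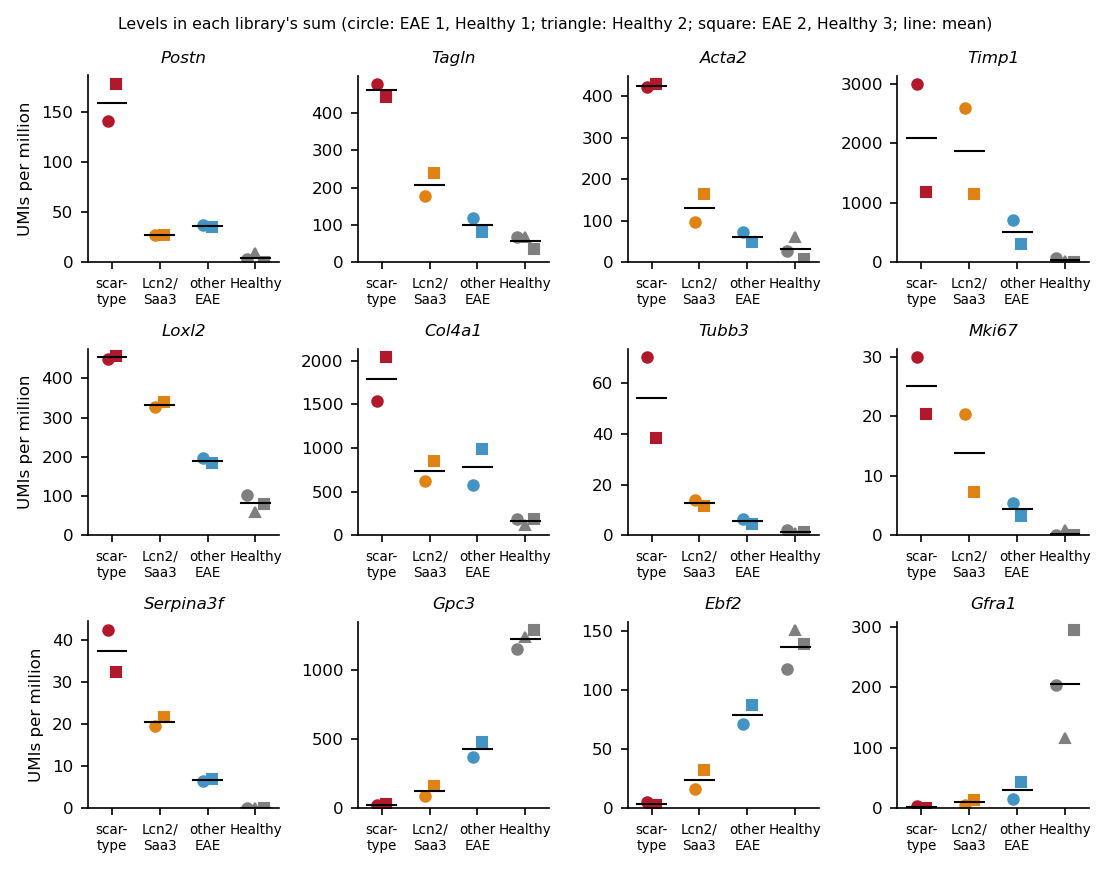
Levels of 12 genes (CPM of each library's summed cells) in scar-type cells, Lcn2/Saa3 fibroblasts, other EAE fibroblasts and Healthy fibroblasts; each point is 1 library and the line the mean. Postn stands at 141 and 178 in scar-type cells against 37.7 and 35.3 in other EAE fibroblasts, and Gpc3 at 25.4 and 27.9 against 371 and 482.

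Genes induced by interferon rose in part. Of 28 tested effectors 12 rose and 1 fell, with a median log2 fold change of 0.58. The rule counts Cxcl9, which interferon gamma induces, so rises of such genes, Ubd among them, are not independent of the rule. The gene that fell, Ifit1, had an adjusted p of 0.21 without EAE 1 and 0.93 without EAE 2. Serpina3g, a serine protease inhibitor, had 300.1 and 200.1 CPM in scar-type cells against 60.7 and 57.9 CPM in other EAE fibroblasts (log2 fold change 2.12 ± 0.15 (SE), adjusted p = 3.5e-09), and its near copy Serpina3f rose by 2.54 on the log2 scale. Reads of such near-identical genes can be split between them by the counting. Cxcl10, like Cxcl9 a ligand of CXCR3, had 971 and 338 CPM in scar-type cells against 218 and 145 CPM in other EAE fibroblasts (log2 fold change 1.78 ± 0.22 (SE), adjusted p = 0.0017; 0.086 without EAE 1 and 0.23 against matched fibroblasts). Gbp2, a guanylate binding protein, did not pass (log2 fold change 0.60 ± 0.21 (SE), adjusted p = 0.075), though it did without cells that held markers of other classes (0.0029). In matrix-led cells Gbp2 had 155 and 64.5 CPM, against 177 and 80.8 CPM in other EAE fibroblasts. Serpina3g had 197 and 168 CPM and Cxcl10 496 and 204 CPM in matrix-led cells, both above other EAE fibroblasts. MHC class I genes rose in 5 of 15 cases, and none of the 6 tested class II genes passed.

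Growth factor and transforming growth factor genes moved both ways. Tgfb2 had 39.7 and 80.8 CPM in scar-type cells and 8.94 and 24.9 CPM in other EAE fibroblasts (log2 fold change 1.92 ± 0.19 (SE), adjusted p = 1.6e-07), and Inhba, a subunit of activin, had 43.0 and 100.3 CPM in scar-type cells against 16.0 and 34.0 CPM in other EAE fibroblasts (log2 fold change 1.58 ± 0.18 (SE), adjusted p = 6.9e-07). Tgfb1 had 89.2 and 47.4 CPM in scar-type cells against 35.4 and 44.5 CPM in other EAE fibroblasts (log2 fold change 0.78 ± 0.24 (SE), adjusted p = 0.038), a difference carried by EAE 1. Its adjusted p was 0.96 without EAE 1, 0.052 without EAE 2 and 0.13 in DESeq2. The adjusted p was 0.17 for Tgfb2 after thinning and 0.081 for Inhba without EAE 2. The decoy receptor gene Bambi and the coreceptor gene Tgfbr3 fell, by 1.13 and 1.88 on the log2 scale. In all, 6 of 27 genes of the pathway rose and 5 fell. Bambi had an adjusted p of 0.31 without EAE 1 and 0.17 without EAE 2. Of 25 growth factor genes 12 fell and 3 rose (median log2 fold change -0.65). Igfbp6, which binds insulin-like growth factor II, had 128 and 74.7 CPM in scar-type cells against 807 and 539.6 CPM in other EAE fibroblasts (log2 fold change -2.69 ± 0.12 (SE), adjusted p = 2.5e-12), while Pdgfa, a platelet-derived growth factor, had 129.5 and 98.9 CPM in scar-type cells against 34.8 and 40.6 CPM in other EAE fibroblasts (log2 fold change 1.65 ± 0.16 (SE), adjusted p = 1.3e-07; 0.066 without EAE 1). Dkk2, a secreted Wnt antagonist, rose to 39.1 and 39.0 CPM in scar-type cells, against 4.79 and 11.4 CPM in other EAE fibroblasts (log2 fold change 2.33 ± 0.31 (SE), adjusted p = 4.2e-05), whereas the ligand gene Wnt4 stood at 130.2 and 91.9 CPM in scar-type cells against 567 and 322 CPM in other EAE fibroblasts (log2 fold change -1.90 ± 0.12 (SE), adjusted p = 2.1e-10), and 3 of 17 Wnt ligands and antagonists rose and 6 fell. Cxcl12, the chemokine that retains leukocytes in stromal niches, stood at 249 and 215 CPM in scar-type cells against 625 and 670.1 CPM in other EAE fibroblasts (log2 fold change -1.43 ± 0.12 (SE), adjusted p = 3.6e-08; 0.059 without EAE 2).

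Genes of resting fibroblasts were lower. Of 27 tested genes of that list 20 fell and none rose, with a median log2 fold change of -1.90. That list was chosen with earlier results of these data known, so its falls are no independent result. Among the largest falls, Gpc3, a membrane proteoglycan, had 25.4 and 27.9 CPM in scar-type cells against 371 and 482 CPM in other EAE fibroblasts (log2 fold change -3.96 ± 0.17 (SE), adjusted p = 2.8e-12). Ebf2, a transcription factor, had 5.21 and 2.79 CPM in scar-type cells against 71.5 and 87.3 CPM in other EAE fibroblasts (log2 fold change -4.33 ± 0.29 (SE), adjusted p = 2.0e-09), and Osr2, another transcription factor, 1.95 and 0.464 CPM in scar-type cells against 23 and 31.1 CPM in other EAE fibroblasts (log2 fold change -4.56 ± 0.47 (SE), adjusted p = 3.9e-07). Both scar-type values lay below both others in each of the 3 genes, of which Osr2 is in that list. Gfra1, a coreceptor of a glial neurotrophic factor and also in the list, fell (log2 fold change -3.91 ± 0.55 (SE), adjusted p = 2.3e-04), with an adjusted p of 0.07 in DESeq2 and 0.072 without EAE 2. The other large falls were Fgfbp1, Col9a2, Ranbp3l, Hpca, Asgr1, Saa1 and Scgb1a1, with log2 fold changes between -6.07 (Fgfbp1) and -4.05 (Saa1). Saa1 did not pass against matched fibroblasts (adjusted p = 0.07), nor did Scgb1a1 without cells that held markers of other classes (0.14). Saa1 resembles Saa3, which the rule held low in members (372 and 119 CPM against 982 and 819 CPM in other EAE fibroblasts). Its fall is therefore not independent of the rule. Axon guidance genes fell in 11 of 21 cases and rose in 2, with Ntn1, which encodes netrin 1, at 6.51 and 3.25 CPM in scar-type cells against 42.5 and 30.7 CPM in other EAE fibroblasts (log2 fold change -2.87 ± 0.29 (SE), adjusted p = 1.7e-07; 0.07 after thinning).

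The largest fall of all was in Jchain, the joining chain of antibodies made by plasma cells, with 9.76 and 0.464 CPM in scar-type cells of EAE 1 and EAE 2 against 868 and 3.27 CPM in other EAE fibroblasts (log2 fold change -6.27 ± 0.81 (SE), adjusted p = 0.027). Of the 2718 Jchain UMIs in other fibroblasts of EAE 1, 2679 came from 15 of the 789 barcodes, those with at least 5 UMIs of plasma, red blood or bone cell markers. Without them the log2 fold change was -0.69 (adjusted p = 0.28). The other 128 named genes that had passed did so again. This setting was chosen after seeing the data.

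**Figure D4:**
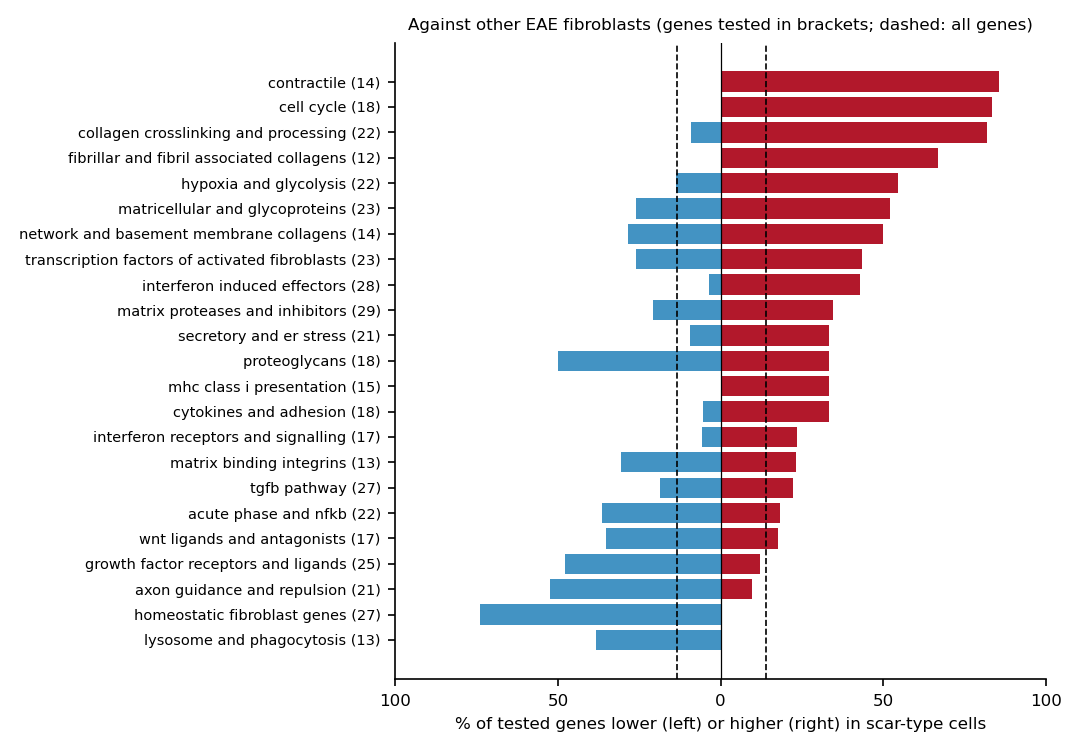
Share of each list's tested genes (in percent, number tested in brackets) that was higher, to the right, or lower, to the left, in scar-type cells than in other EAE fibroblasts; dashed lines give the share among all 11140 genes, 13.9% higher and 13.3% lower. Contractile genes lead with 12 of 14 higher, and the list of resting fibroblast genes has 20 of 27 lower. The lists were chosen with earlier results of these data known.

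Set against Lcn2/Saa3 fibroblasts, the group that the mirror rule finds (605 cells in EAE 1 and 148 in EAE 2), scar-type cells were again higher in Postn. They were also lower in acute phase genes, for which the cells were in part selected. The mirror rule asked for UMIs over Lcn2, Saa3, Cxcl5 and Draxin, and the scar-type rule limited them. The lower acute phase genes are therefore no independent result. In the same fit 461 of 11140 genes (4.14%) were higher and 655 (5.88%) lower in scar-type cells, and without the library block 6 and 81. Postn had 141 and 178 CPM in scar-type cells against 27.5 and 27.1 CPM in Lcn2/Saa3 fibroblasts (log2 fold change 2.52 ± 0.16 (SE), adjusted p = 6.2e-10), and Fabp5, a fatty acid binding protein, 99.6 and 152 CPM in scar-type cells against 25.3 and 38.8 CPM in Lcn2/Saa3 fibroblasts (log2 fold change 2.03 ± 0.19 (SE), adjusted p = 2.6e-07). Both passed with either EAE library left out. The other largest rises were Ubd, Dkk2, Mmp9, Serpinb2, Tubb3 and Heyl, a Notch target, with log2 fold changes between 2.06 (Heyl) and 3.15 (Ubd). All 6 passed without EAE 2. Without EAE 1 none of the 5 still tested passed, with adjusted p between 0.13 (Dkk2) and 1 (Ubd), and Serpinb2, which was not tested there, had 0.12 in DESeq2. Acta2 at 422 and 428 CPM in scar-type cells against 96.3 and 165 CPM in Lcn2/Saa3 fibroblasts did not pass (log2 fold change 1.79 ± 0.37 (SE), adjusted p = 0.11), though it did with DESeq2 (adjusted p = 0.0062) and without EAE 2 (4.9e-04). Timp1 had 2986 and 1172 CPM in scar-type cells and 2597 and 1144 CPM in Lcn2/Saa3 fibroblasts (log2 fold change 0.13 ± 0.10 (SE), adjusted p = 0.51), which did not pass.

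The falls against Lcn2/Saa3 fibroblasts were led by acute phase genes beyond the rule. Saa1, a serum amyloid A gene, had 14.3 and 1.39 CPM in scar-type cells against 579 and 399.6 CPM in Lcn2/Saa3 fibroblasts (log2 fold change -6.13 ± 0.45 (SE), adjusted p = 0.0038). Saa2 stood at 5.21 and 3.71 CPM in scar-type cells against 214 and 139.8 CPM in Lcn2/Saa3 fibroblasts (log2 fold change -5.27 ± 0.22 (SE), adjusted p = 9.6e-13; 1 with either library left out), and Saa4 fell by 5.31 on the log2 scale. These genes resemble Saa3 in sequence, and the mirror rule selected on Saa3, so reads shared between them cannot be told apart from a fall. F5, a coagulation factor, had 1.95 and 2.32 CPM in scar-type cells against 51.9 and 50.5 CPM in Lcn2/Saa3 fibroblasts (log2 fold change -4.46 ± 0.34 (SE), adjusted p = 8.1e-09), and Rbp4, a retinol carrier, 67.7 and 20.4 CPM in scar-type cells against 576 and 469 CPM in Lcn2/Saa3 fibroblasts (log2 fold change -3.67 ± 0.37 (SE), adjusted p = 0.014). Of 22 acute phase and NF-kappaB genes 9 fell and none rose, while contractile genes rose in 8 of 14 cases and network collagen and basement membrane genes in 8 of 14, with 4 falling. More of all genes passed against other EAE fibroblasts (13.9% higher, 13.3% lower), so the counts of the 2 comparisons are not on equal terms. The median log2 fold changes of the following lists were smaller in size here. Cell cycle genes rose in 4 of 18 cases, median 0.67 (15 of 18 and 1.95 there). Collagen crosslinking genes rose in 9 of 22, median 0.36 (18 of 22 and 0.84 there). Of 22 hypoxia and glycolysis genes 2 rose and 4 fell, median -0.03 (12, 3 and 0.44 there). Resting fibroblast genes fell in 10 of 27 cases, median -1.19 (20 of 27 and -1.90 there).

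Healthy fibroblasts were the last comparison group, and here state and cell group cannot be told apart because the Healthy libraries held 3 scar-type cells. In a fit with a term for batch, 1889 of 10434 genes (18.1%) were higher in EAE scar-type cells and 1924 (18.4%) lower, 36.5% in all. Postn had 141 and 178 CPM in scar-type cells against 3.14, 9.73 and 0.694 CPM in the fibroblasts of Healthy 1 to 3 (log2 fold change 5.08 ± 0.42 (SE), adjusted p = 6.3e-06). Col8a1, a chain of the network collagen VIII, had 1589 and 1416 CPM in scar-type cells against 138, 131 and 114 CPM in Healthy fibroblasts (log2 fold change 3.53 ± 0.14 (SE), adjusted p = 3.9e-09). Fn1 had 675 and 666 CPM in scar-type cells against 89.0, 85.1 and 114 CPM in Healthy fibroblasts (log2 fold change 2.75 ± 0.23 (SE), adjusted p = 2.3e-06). Serpina3f had 42.3 and 32.5 CPM in scar-type cells against 0, 0 and 0 CPM in Healthy fibroblasts. Of the lists, 17 of 18 cell cycle genes, 18 of 27 interferon-induced effectors and 11 of 13 contractile genes rose. Of 28 genes of resting fibroblasts 17 fell and 3 rose. The falls of that list are no independent result, as above, and the interferon-induced rises are not independent of the rule's use of Cxcl9. At the other end Gpc3 had 25.4 and 27.9 CPM in scar-type cells against 1154, 1238 and 1287 CPM in Healthy fibroblasts (log2 fold change -5.68 ± 0.23 (SE), adjusted p = 3.9e-09), and the lipid carrier gene Apod 2331 and 1692 CPM in scar-type cells against 65500.0, 87033 and 67500.0 CPM in Healthy fibroblasts (log2 fold change -5.28 ± 0.41 (SE), adjusted p = 6.8e-04). Col15a1, the basement membrane collagen that was higher in scar-type cells than in other EAE fibroblasts (981 and 993 CPM in scar-type cells against 278 and 459.8 CPM in other EAE fibroblasts), had 613, 777 and 1064 CPM in Healthy fibroblasts and did not pass against them (log2 fold change 0.15 ± 0.19 (SE), adjusted p = 0.58).

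Within the scar-type cells, Cxcl9-led members were higher than matrix-led ones in interferon-induced and MHC class I genes. Cxcl9, which interferon gamma induces, set this split, so the rises of such genes are not independent of it. Of 10133 genes tested with edgeR 82 (0.809%) were higher and 11 (0.109%) lower in Cxcl9-led cells, 0.918% in all. Without the library block edgeR called 0 genes, with 415 at an unadjusted p under 0.05, against 786 with it, and DESeq2 with the block called 44 higher and 2 lower. Postn had 124 and 205 CPM in Cxcl9-led cells of EAE 1 and EAE 2 against 157 and 168 CPM in matrix-led cells (log2 fold change -0.05 ± 0.18 (SE), adjusted p = 0.98), and Acta2 492 and 378 CPM in Cxcl9-led cells against 374 and 439 CPM in matrix-led cells (log2 fold change 0.10 ± 0.38 (SE), adjusted p = 0.99). For both genes the order turned round between the libraries. Tnc, a rule gene, had 285 and 175 CPM in Cxcl9-led cells and 622 and 278 CPM in matrix-led cells. That is a description, since Tnc UMIs entered the count that split the members.

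Of 27 interferon-induced effectors 12 were higher in Cxcl9-led cells and none lower (median log2 fold change 1.12), and of 14 MHC class I genes 12 were higher. Ubd had 246 and 79.5 CPM in Cxcl9-led cells against 15.1 and 0.571 CPM in matrix-led cells (log2 fold change 4.60 ± 0.34 (SE), adjusted p = 1.5e-11). Few cells carried it: a Ubd UMI was found in 13.9% of the 208 scar-type cells of EAE 1 and 3.74% of the 214 of EAE 2. Gbp2 had 514 and 225 CPM in Cxcl9-led cells against 155 and 64.5 CPM in matrix-led cells (log2 fold change 1.76 ± 0.15 (SE), adjusted p = 5.1e-10), and Cxcl10 1630.2 and 1011 CPM in Cxcl9-led cells against 496 and 204 CPM in matrix-led cells (log2 fold change 1.97 ± 0.13 (SE), adjusted p = 1.5e-11). Within each library the Cxcl9-led value was the higher in all 3 genes. Cd274, which encodes the checkpoint ligand PD-L1, had 18.6 and 5.48 CPM in Cxcl9-led cells against 8.15 and 0.571 CPM in matrix-led cells and did not pass (log2 fold change 1.84 ± 0.78 (SE), adjusted p = 0.5). The class I gene H2-T23 had 389.8 and 98.6 CPM in Cxcl9-led cells against 178 and 53.6 CPM in matrix-led cells (log2 fold change 1.08 ± 0.16 (SE), adjusted p = 8.2e-05). With 1 EAE library left out, the spread again came from Healthy 1 and Healthy 2. Gbp2 then had an adjusted p of 0.091 without EAE 1 and 0.1 without EAE 2, Cxcl10 0.069 without EAE 2, and H2-T23 1 in both cases. Ubd passed with either library left out, and Cxcl10 did not pass without cells that held markers of other classes (log2 fold change 2.11, adjusted p = 0.21).

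Several of the largest differences lay in genes of other cell types. Myeloid markers summed to 102 and 38.4 CPM in Cxcl9-led cells against 22.1 and 9.13 CPM in matrix-led cells, T and natural killer cell markers to 35.6 and 32.9 CPM in Cxcl9-led cells against 4.66 and 8.56 CPM in matrix-led cells. Mural markers summed to 1244 and 1318 CPM in Cxcl9-led cells against 626 and 731 CPM in matrix-led cells. Lyz2, a lysozyme of myeloid cells, had 63.4 and 35.6 CPM in Cxcl9-led cells against 4.66 and 3.42 CPM in matrix-led cells, and the pericyte marker Higd1b had 27.8 and 60.3 CPM in Cxcl9-led cells against 1.16 and 9.13 CPM in matrix-led cells. Kcnj8 had 32.5 and 27.4 CPM in Cxcl9-led cells against 6.98 and 4.57 CPM in matrix-led cells. All 8 members of EAE 1 with at least 5 Rgs5 UMIs were Cxcl9-led, as were 2 of the 4 of EAE 2. Without cells that held markers of other classes, Lyz2 had an adjusted p of 0.83, the class II genes H2-Ab1 and Cd74 0.54 and 0.63, and Higd1b and Kcnj8 were too low to test, while 47 genes were still higher and 7 lower. Ubd, Gbp2 and H2-T23 passed in that setting. In the other direction, matrix-led cells were higher in Inhba (24.7 and 43.8 CPM in Cxcl9-led cells against 58.2 and 112 CPM in matrix-led cells, log2 fold change -1.32 ± 0.26 (SE), adjusted p = 0.0032), in the fibrillar collagen gene Col11a1 (29.4 and 63.0 CPM in Cxcl9-led cells against 73.3 and 134 CPM in matrix-led cells, -1.27 ± 0.24 (SE), adjusted p = 0.0024) and in Gas1, a growth arrest gene (258 and 132 CPM in Cxcl9-led cells against 483 and 280.2 CPM in matrix-led cells, -0.95 ± 0.15 (SE), adjusted p = 1.6e-04). Bex1, Zic2, Rrm2, Anxa3 and Mfap2 were the other largest falls, and with a library left out none of the 8 passed (adjusted p between 0.059, for Bex1, and 1).

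**Figure D5:**
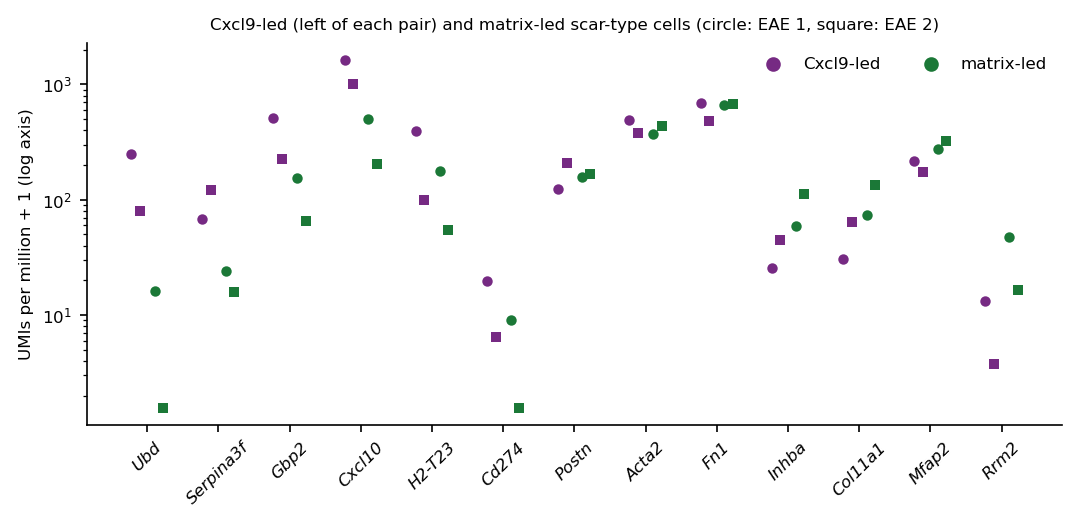
Levels (CPM plus 1, log axis) of 13 genes in Cxcl9-led scar-type cells, to the left of each pair, and matrix-led ones, for EAE 1 (circles) and EAE 2 (squares). Gbp2 stands at 514 and 225 in Cxcl9-led against 155 and 64.5 in matrix-led cells, while Postn stands at 124 and 205 against 157 and 168.

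Interferon signals act on promoters through short elements. A core of the interferon-stimulated response element, GAAANNGAAA, is bound by interferon regulatory factors, and the gamma-activated site, TTCNNNGAA, is found in promoters of genes induced by interferon gamma. Both were searched on both strands in RefSeq promoters of build GRCm38.p6, each 250 bases before to 50 after a start site. Of the 82 genes higher in Cxcl9-led cells 53 had a promoter in that table, and the response element core was found in 15 of them (28.3%), against 3.99% of all 27025 genes listed and 3.65% of the 7707 genes tested without passing. The gamma-activated site was found in 11 of the 53 (20.8%), against 9.55% and 8.10%. Of the 11 genes lower in Cxcl9-led cells 9 had a promoter, 1 with the response element core and none with the gamma-activated site. These are counts of letters, with no test, and the motifs can overlap. The promoters of Cxcl10 and Gbp2 are printed for the response element core and that of Serpina3f for the gamma-activated site, with the match in capitals; in Gbp2 it is on the opposite strand. The promoter of Cxcl9, the gene that split the members, is printed as well and held neither string of letters in this window. Other forms of interferon elements were not searched, so their absence is not shown. The Cxcl9 promoter lies at chr5:92328030-92328329, - strand, Cxcl10 at chr5:92348840-92349139, - strand, Gbp2 at chr3:142620413-142620712, + strand and Serpina3f at chr12:104214294-104214593, + strand, and each sequence, from RefSeq, is written 5′ to 3′ on its gene's strand.
Cxcl9: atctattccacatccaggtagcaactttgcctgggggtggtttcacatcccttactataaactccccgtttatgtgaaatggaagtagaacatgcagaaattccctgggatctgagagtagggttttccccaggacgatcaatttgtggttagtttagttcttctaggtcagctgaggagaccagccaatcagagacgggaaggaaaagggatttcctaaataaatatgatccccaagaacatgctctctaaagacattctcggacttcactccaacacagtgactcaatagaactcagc
Cxcl10: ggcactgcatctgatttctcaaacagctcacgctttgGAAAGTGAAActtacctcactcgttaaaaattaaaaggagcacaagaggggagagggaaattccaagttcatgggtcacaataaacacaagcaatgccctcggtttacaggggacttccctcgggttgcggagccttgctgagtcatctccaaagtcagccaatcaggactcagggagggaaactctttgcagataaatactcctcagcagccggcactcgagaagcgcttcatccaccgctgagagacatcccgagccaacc
Gbp2: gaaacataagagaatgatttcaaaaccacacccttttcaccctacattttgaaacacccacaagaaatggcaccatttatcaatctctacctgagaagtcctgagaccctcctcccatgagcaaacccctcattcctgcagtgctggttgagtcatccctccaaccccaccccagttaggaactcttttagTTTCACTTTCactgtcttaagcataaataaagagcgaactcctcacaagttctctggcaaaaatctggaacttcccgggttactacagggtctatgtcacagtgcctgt
Serpina3f: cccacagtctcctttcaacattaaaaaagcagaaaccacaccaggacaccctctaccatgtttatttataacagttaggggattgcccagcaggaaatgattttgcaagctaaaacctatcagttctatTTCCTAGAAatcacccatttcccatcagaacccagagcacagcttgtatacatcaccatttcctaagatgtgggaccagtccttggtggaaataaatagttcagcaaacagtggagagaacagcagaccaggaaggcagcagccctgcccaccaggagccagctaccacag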

How the data were processed

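Cells of 5 libraries were measured with 10x Genomics v2 droplets after sorting for the reporter, per the labels' protocols. The values used are raw UMI counts per gene and barcode as the authors deposited them; the tools named per the submitters' processing notes are Cell Ranger 2.1.1 and Seurat 3, and the build is mm10. The values are whole numbers with differing totals per library, as raw counts are. The members, gene lists and tests were chosen with earlier results of these data known. Where the labels of EAE 1 give no number, its replicate number follows accession order and pairs nothing; the library block joins sums of the same library.

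A barcode needed 200 genes or more and a mitochondrial share of 10% or less, and a barcode repeated in the first batch was used once. Doublets were not called; cells with 3 or more UMIs over 17 markers of other classes were left out in an alternative. Other fibroblasts are cells with at least 2 UMIs over Col1a1, Col1a2, Col3a1 and Dcn that met neither rule and held fewer than 3 UMIs over those 17 markers. UMIs were summed per library and group (at least 20 cells) and tested with edgeR 4.0.16 in R 4.3.3 (TMM scaling, filterByExpr, robust quasi-likelihood F test, Benjamini-Hochberg adjustment over all genes tested, tested on simulated data first). The EAE fit held 6 sums, the fit of Cxcl9-led and matrix-led cells 8 and the fit with Healthy fibroblasts 9, with a batch term. SE is the absolute log2 fold change divided by the square root of F. Named genes are, among those that passed with at least 20 CPM in the higher group and the same direction in both EAE libraries, the 12 largest each way against other fibroblasts and the 8 largest each way in the other comparisons, up to 3 per list each way, and Postn, Spp1, Acta2, Col8a1, Cxcl10, Gbp2, Cd274, Tgfb1 and Fn1 in any case. Hspg2 and the mural genes Rgs5, Abcc9, Notch3, Mcam, Cspg4 and Vtn were named after their values were seen. The rule names more genes than are printed; most of the rest enter through their list's counts, and 1 is not reported here. Alternatives were DESeq2 1.42.0, library totals for scaling, no filter on low counts, all barcodes as deposited, cells with other markers or the 5% with the most UMIs left out, a minimum of 5 UMIs, thinning to 2000 UMIs with the groups redrawn by the same rules, matched fibroblasts, no block, and each library left out. Depth ranged from 1588693 to 10775024 UMIs per library, which sets the counting intervals given.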

Additional observations from a re-analysis of the deposited data

Results flagged for a closer look

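The first batch's tables list 694 genes that the second batch's tables lack, and these entered no comparison. They summed to 294.79 CPM in the scar-type cells of EAE 1 (453 UMIs, exact Poisson 95% interval 268 to 323, counting error only), above the 5.24 CPM in the fibroblasts of Healthy 1 and the 12.2 CPM in those of Healthy 2. In Lcn2/Saa3 fibroblasts of EAE 1 they summed to 299 CPM and in other fibroblasts of EAE 1 to 16116 CPM. Most of the scar-type UMIs, 308 of 453, came from Igkc, the antibody kappa light chain gene, spread over 154 of the 208 cells with at most 13 UMIs per cell. A single barcode among the other fibroblasts of EAE 1 held 7609 Igkc UMIs. The source of these UMIs was not tested.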

How the results depend on the processing

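Most counts of genes were smaller under other settings. Against other EAE fibroblasts (1544 higher, 1481 lower) DESeq2 gave 596 and 524, thinning to 2000 UMIs 377 and 429, no replicate block by library 208 and 315, matched fibroblasts 481 and 621, and leaving out 1 library 91 to 125 and 240 to 281. Against Lcn2/Saa3 fibroblasts (461 and 655) the counts were 111 and 280 in DESeq2, 210 and 304 thinned, 6 and 81 without the block, and 10 to 35 and 99 to 116 with a library left out. Cxcl9-led against matrix-led cells (82 and 11) gave 44 and 2 in DESeq2, 20 lower without the filter, 47 and 7 without cells holding other markers, 54 and 7 without the 5% deepest cells, 12 and 1 thinned, 0 and 0 without the block, and 10 to 12 and 1 with a library left out. Against Healthy fibroblasts (1889 and 1924) thinning gave 750 and 809, and leaving out 1 library gave 685 to 2085 higher and 810 to 2049 lower, the lower ends without EAE 1. Fits with an EAE library left out held the Healthy sums too, and their 1 residual degree of freedom came from Healthy 1 and Healthy 2, with the lone EAE sums assumed to vary like them; the cause of the other changes was not tested. Shares of scar-type cells were 6.21% in EAE 1 and 5.61% in EAE 2 when thinned, 9.15% and 12.5% with at least 5 UMIs, 1.46% in Healthy 1 and 2.25% in Healthy 2 with all barcodes as deposited, and 0 in Healthy 2 with at least 5 UMIs. Of the named genes, these turned sign, none of them past the threshold there. Against other EAE fibroblasts Ltbp4 was 0.30 thinned, and Spp1 was -0.061 with library totals, -0.63 without the deepest cells, -0.24 thinned, -0.013 without the block, -0.10 without EAE 2 (0.19 without EAE 1), -0.14 against matched fibroblasts and -0.0098 without other fibroblasts holding plasma, red blood or bone cell markers. Against Lcn2/Saa3 fibroblasts Gbp2 was -0.092 without EAE 1 and 0.95 without EAE 2. Between Cxcl9-led and matrix-led cells Postn was 0.25 without EAE 1 and -0.35 without EAE 2, Fn1 -0.53 and 0.042, and Acta2 was -0.065 without cells holding other markers, -0.18 without the deepest cells, -0.076 with at least 5 UMIs, -0.40 thinned, -0.26 without EAE 1 and 0.39 without EAE 2. When thinned, EAE 2 had too few Cxcl9-led cells for a sum.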
